A study of Bos taurus with 12 samples.

Results

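The genes that seal an embryonic epithelium, couple its cells and move salt and water across it were followed through the start of elongation in cattle embryos. They comprised every gene on the array whose probe set carried a single symbol of the claudin, connexin, zonula occludens, sodium pump, aquaporin, cadherin, catenin, desmosomal cadherin or plakophilin families, together with OCLN, F11R, JUP, CGN, DSP and MARVELD2 where these were present. This gave 56 genes of the 9155 with a single symbol, each represented by its probe set with the highest mean over all 12 arrays. They fell into 18 tight junction, 12 adherens junction, 9 desmosome, 7 gap junction, 6 water channel and 4 sodium pump genes. Other genes that were looked for, CTNND1, AQP8, AQP9, OCLN, MARVELD2, GJA5, DSP and DSG2, had no probe set carrying their symbol alone and are not analysed here.

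RNA came from 12 pools of bovine embryos measured on Affymetrix arrays, with 3 pools in each of 4 groups. The Day 13 in vitro group held conceptuses recovered from synchronized recipient heifers after transfer of blastocysts made by in vitro fertilization, and the Day 13 in vivo group held conceptuses recovered in the same way after transfer of blastocysts obtained by superovulation. The Day 7 in vitro and Day 7 in vivo groups held blastocysts of those origins frozen without transfer. Each Day 13 pool held 5 conceptuses and each Day 7 pool held 25 blastocysts, 10 blastocysts had been placed in each recipient, and 75 ng of total RNA entered each array, so levels are relative to total RNA. The pools are whole embryos with all their cell types. In such bulk samples fewer cells of a type and less RNA per cell cannot be told apart.

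The blastocyst forms when the outer cells, the trophectoderm, become a sealed epithelium. E-cadherin and the catenins hold these cells together, claudins and other tight junction proteins close the space between them, and desmosomes anchor their intermediate filaments. The sodium pump, an alpha subunit with a beta subunit, drives sodium into the cavity, and water follows, in part through aquaporins. Connexins form gap junctions through which small molecules pass between cells. In ruminants the blastocyst then grows into a long filament before it implants, and the epithelium must expand with it.

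Values are log2 probe set intensities, and 3.39 was taken as background, from control probe sets for which no matching RNA had been added. The Day 13 in vitro arrays had lower poly-A spike-in levels, at 9.27, 10.50 and 12.99 in replicates 1, 2 and 3, than the other 9 arrays, which lay between 13.3 and 15.0. The GAPDH probe set at the 3' end exceeded that at the 5' end, a gap that widens with shorter labelled RNA, by 2.53 to 4.17 in Day 13 in vitro, 2.85 to 4.62 in Day 13 in vivo, 3.40 to 4.19 in Day 7 in vitro and 5.58 to 5.65 in Day 7 in vivo arrays. Trophoblast markers were present in all groups, and 11 of the 15 listed were measured. Their summed linear intensity was 56409 to 91284 in Day 13 in vitro, 54600 to 66949.5 in Day 13 in vivo, 22893 to 35949 in Day 7 in vitro and 16735 to 32691 in Day 7 in vivo arrays. All 4 leukocyte and all 4 cumulus and granulosa markers stayed at or below background on every array, as did VWF, KDR and TEK of 4 endothelial markers. The fourth, PECAM1, exceeded it on all 12. Of 4 uterine epithelium markers, 2 stayed at or below background on every array and 1 exceeded it on 3 or more. Of 3 epiblast markers 2 were measured. Their summed linear intensity was 27.9 to 44.6 in Day 13 in vitro and 110 to 694 in Day 13 in vivo arrays. It was 957 to 2418 in Day 7 in vitro and 439 to 1185 in Day 7 in vivo arrays. The globin gene HBB averaged 2.86 in Day 13 in vitro and 2.84 in Day 13 in vivo arrays, against 7.27 in Day 7 in vitro and 7.27 in Day 7 in vivo arrays.

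Of the 56 genes, 29 never rose above background, and 25 did so on 3 or more of the 12 arrays. The silent probe sets included all those of the cadherin genes CDH3, CDH5, CDH8, CDH11, CDH13, CDH16, CDH17 and CDH23, and those of AQP1, AQP4, AQP5 and AQP7. They also included both probe sets for the scaffold gene TJP1, of which the brighter reached 2.41 at most. These probe sets give no level for their genes. Above background on all 12 arrays were 19 genes, among them CDH1, CTNNA1, CTNNB1, CLDN6, F11R, PKP2, DSC2, ATP1B3 and AQP3.

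**Figure D1:**
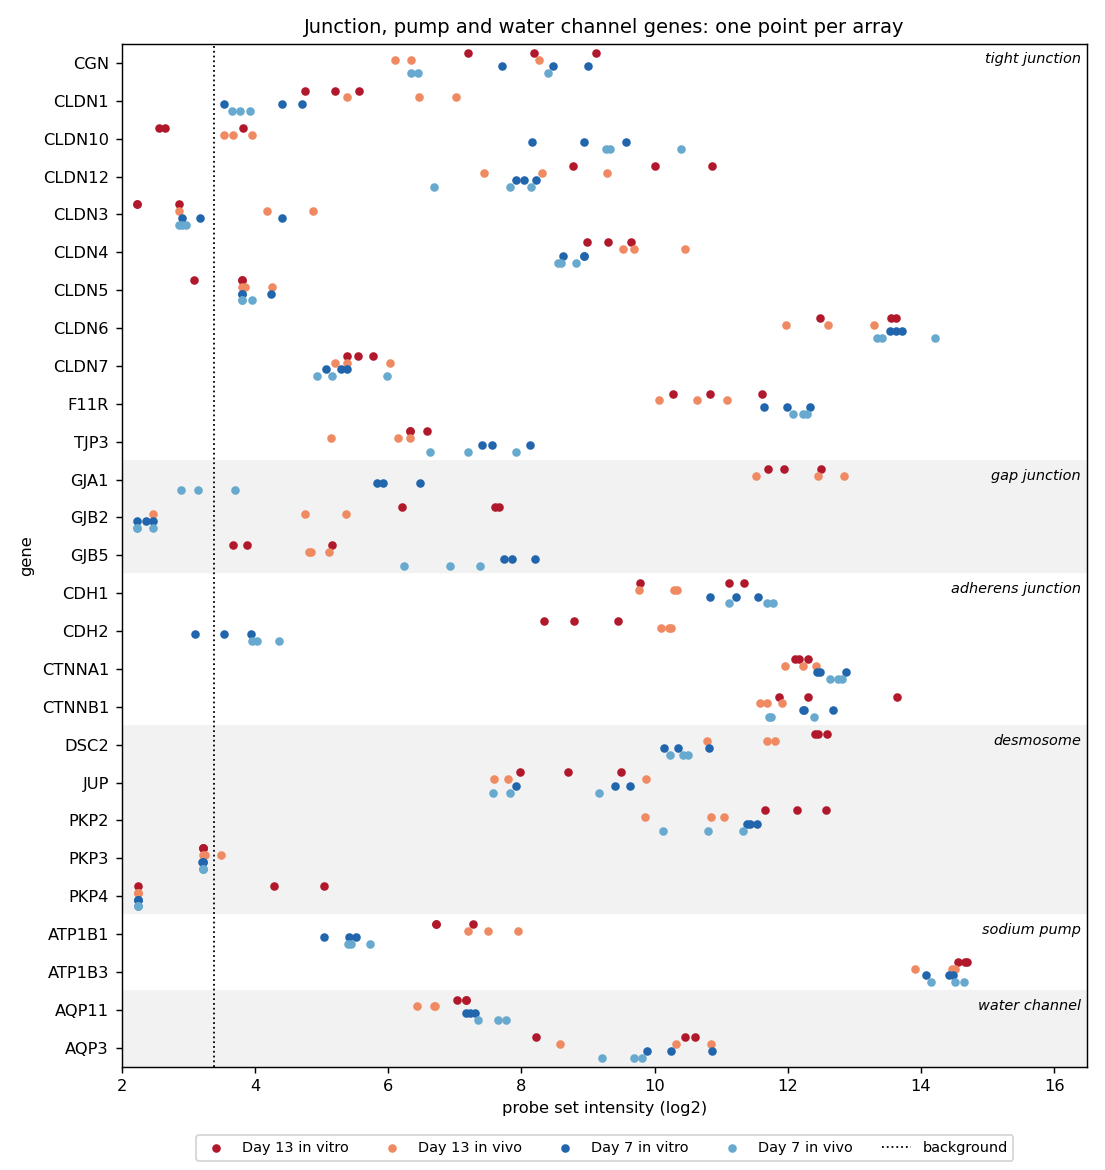
Log2 probe set intensity (horizontal axis) of the 27 genes that exceeded background on at least 1 array, grouped by role, with one point per array and the 4 groups in separate colours; the dotted line is the background of 3.39. The Day 13 and Day 7 points lie apart for GJA1, GJB5, CDH2, CLDN10 and ATP1B1 and mix for JUP, CGN, CTNNB1 and AQP3.

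The first question was how these genes differed between Day 13 conceptuses and Day 7 blastocysts. Among embryos made in vitro, 7 of the 56 genes passed at an adjusted p below 0.05 (12.5%), 5 higher and 2 lower at Day 13, where 7.51% of all 24016 probe sets passed, 3.55% higher and 3.96% lower. All 7 were among the 25 of the 56 genes that were above background on 3 or more arrays. Of the 10591 probe sets above background on 3 or more arrays, 16.6% passed. Among embryos made in vivo, 8 of 56 passed (14.3%), also 5 higher, with 3 lower, where 3.79% of all probe sets passed, 1.70% higher and 2.09% lower. All 8 were among the same 25 genes, where 8.23% of the probe sets above background passed. GJA1, CDH2 and ATP1B1 rose in embryos of both origins, and CLDN10 and GJB5 fell in both. With each array's poly-A spike-in mean as a covariate, the in vitro calls of GJB2 (adjusted p = 0.133), GJB5 (0.0642), DSC2 (0.157) and ATP1B1 (0.258) were lost. Their fitted log2 differences were then 4.96, -2.62, 1.78 and 1.26, against 4.80, -3.70, 2.05 and 1.59 without it. The spike-in was lowest in the Day 13 in vitro arrays, so this fit separates it poorly from that group. Groups did not overlap for 16 genes in vitro, against 21.5% of all probe sets and 44.4% of those above background, and for 14 genes in vivo, against 15.0% and 30.6%. These genes too were all among the 25 above background. Over the 56 genes and over all probe sets the median log2 difference was 0 for each origin, a value set by the many probe sets at background. Over the 25 genes above background on 3 or more arrays it was -0.11 in vitro and 0.12 in vivo. All probe sets above background had -0.02 for each origin. The median absolute difference of the 25 genes was 0.67 in vitro and 1.04 in vivo, against 0.71 and 0.52 for all probe sets above background.

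**Figure D2:**
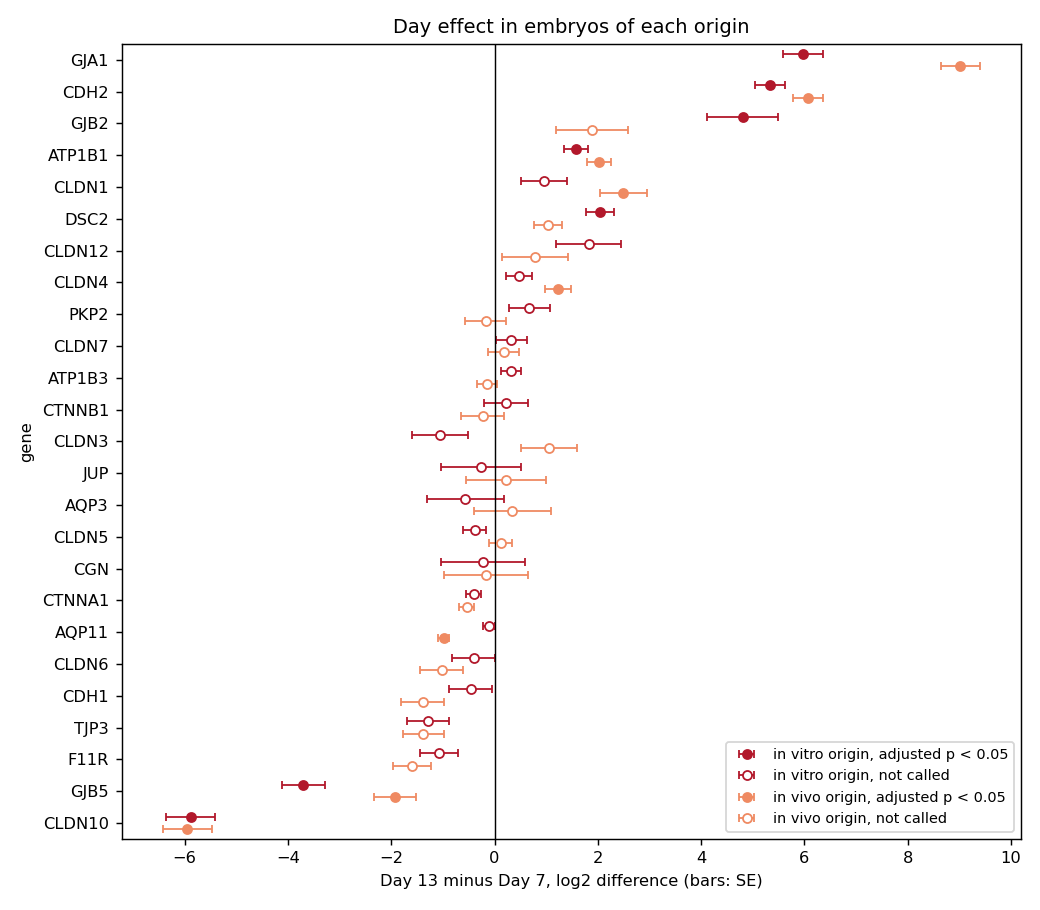
Day 13 minus Day 7 log2 difference with its standard error for the 25 genes above background on at least 3 arrays, for in vitro origin (dark) and in vivo origin (light); filled points passed at an adjusted p below 0.05. GJA1 and CDH2 stand highest and CLDN10 lowest for both origins, and the GJB2 points are fitted values against Day 7 levels below background.

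GJA1, which encodes the widespread gap junction protein connexin 43, had the largest fitted rise of the 56 genes for each origin. Its values were 11.95, 11.70 and 12.51 in Day 13 in vitro and 12.84, 11.52 and 12.45 in Day 13 in vivo conceptuses, against 5.84, 6.47 and 5.92 in Day 7 in vitro and 3.15, 2.89 and 3.71 in Day 7 in vivo blastocysts. All Day 13 arrays lay far above all Day 7 arrays, and in the in vivo blastocysts 1 of 3 arrays exceeded background. The difference was 5.98 ± 0.38 in vitro (log2 ± SE, adjusted p = 7.54e-05) and 9.02 ± 0.38 in vivo (adjusted p = 1.2e-05). Both calls held under every alternative run with this probe set, and the values ranged from 5.75 to 6.43 in vitro and 8.55 to 9.40 in vivo. The other GJA1 probe set was below background on all 12 arrays and gives no level, so it could not repeat the comparison.

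GJB2, which encodes connexin 26, exceeded background on 5 arrays, all of them from Day 13. It had 7.61, 6.21 and 7.67 in Day 13 in vitro and 4.75, 2.48 and 5.36 in Day 13 in vivo conceptuses, while all 6 Day 7 arrays lay between 2.23 and 2.48, below background. In vitro the Day 13 level was higher by at least 13.7-fold (adjusted p = 0.00498). In vivo, where replicate 2 was at background, the Day 13 level was higher by at least 1.75-fold and did not pass (adjusted p = 0.245). Without that array it passed (adjusted p = 0.0148). The other 2 GJB2 probe sets were below background on all arrays.

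GJB5, a connexin gene known from mouse trophoblast, went the other way. It had 3.67, 3.88 and 5.15 in Day 13 in vitro and 4.84, 5.12 and 4.81 in Day 13 in vivo conceptuses, against 8.21, 7.74 and 7.86 in Day 7 in vitro and 6.93, 7.37 and 6.23 in Day 7 in vivo blastocysts. No Day 13 array reached the lowest Day 7 array. GJB5 changed by -3.70 ± 0.41 in vitro (adjusted p = 0.00136) and by -1.93 ± 0.41 in vivo (adjusted p = 0.0407). The in vivo call was lost when any one of Day 13 in vivo replicates 1, 2 and 3 or Day 7 in vivo replicates 1 and 2 was left out (adjusted p 0.0762 to 0.124), and with a replicate block (adjusted p = 0.123). The other connexin genes, GJB1, GJB6, GJC1 and GJD2, were at background on every array.

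**Figure D3:**
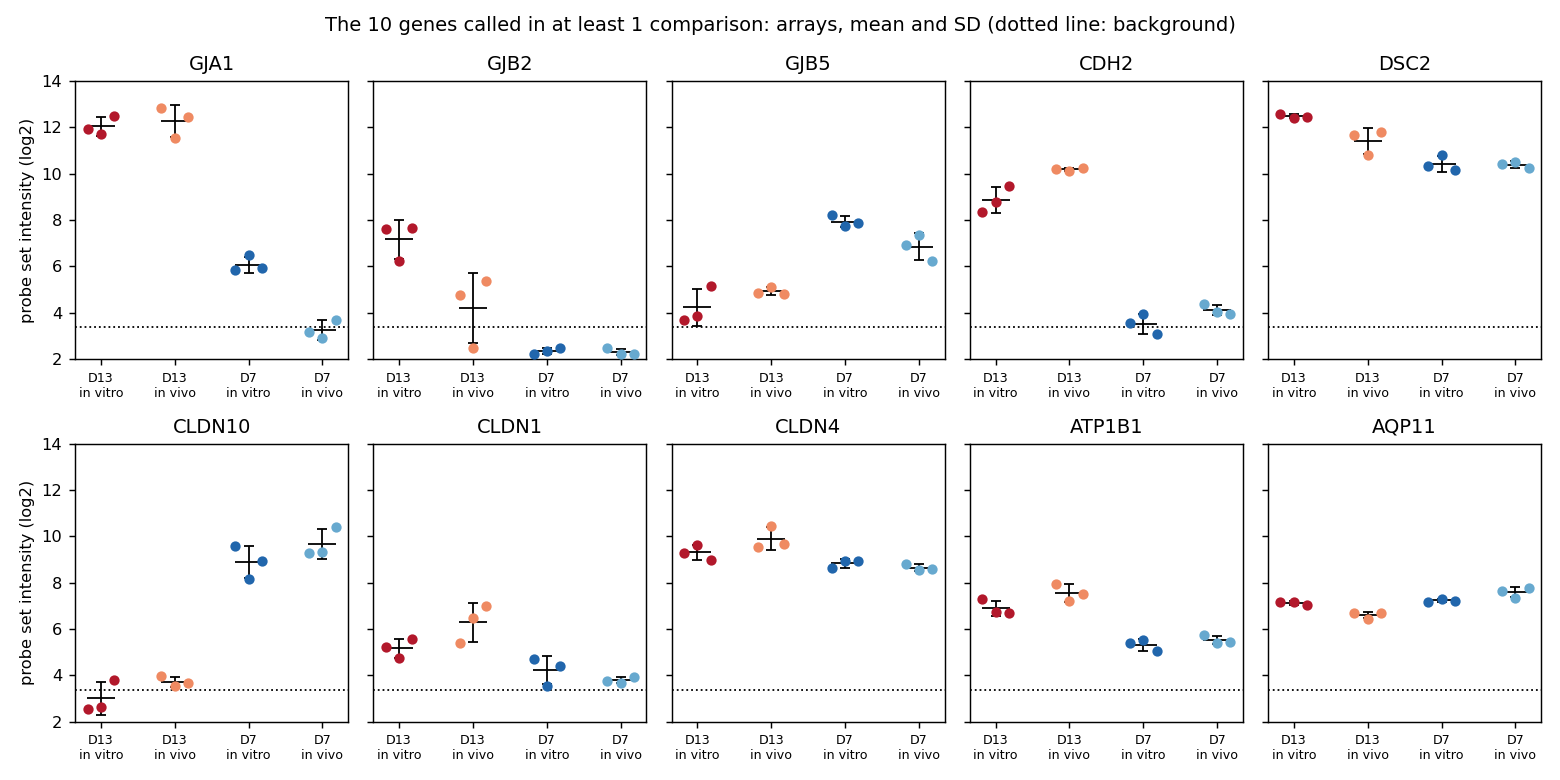
Log2 probe set intensity of the 10 genes that passed in at least 1 comparison, with a point per array, the group mean as a horizontal line and the SD (n = 3) as a bar; the dotted line is the background. GJA1 and CDH2 are near background in Day 7 blastocysts made in vivo and high in both Day 13 groups, and CLDN10 shows the opposite order.

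Of the adherens junction genes, one passed. CDH2 encodes N-cadherin, the cadherin of nerve cells and of muscle and other mesodermal cells, which is also made by endoderm. It had 8.35, 8.79 and 9.45 in Day 13 in vitro and 10.22, 10.10 and 10.24 in Day 13 in vivo conceptuses, against 3.54, 3.95 and 3.09 in Day 7 in vitro and 4.36, 4.04 and 3.96 in Day 7 in vivo blastocysts. The blastocyst values were close to background and below every conceptus value. CDH2 rose by 5.34 ± 0.29 in vitro (adjusted p = 3.59e-05) and by 6.07 ± 0.29 in vivo (adjusted p = 3.03e-05), calls that held under every alternative.

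CDH1, the E-cadherin of the trophectoderm, stayed high throughout. It had 11.34, 11.11 and 9.78 in Day 13 in vitro and 10.33, 9.77 and 10.30 in Day 13 in vivo conceptuses, against 11.22, 11.55 and 10.84 in Day 7 in vitro and 11.11, 11.69 and 11.78 in Day 7 in vivo blastocysts. The in vivo groups did not overlap, with a difference of -1.39 ± 0.41 that did not pass (adjusted p = 0.138, and 0.0166 to 0.0443 with ribosomal protein centring, dim probe sets left out or the poly-A covariate), while the in vitro groups overlapped (-0.46 ± 0.41, adjusted p = 0.744). A dimmer CDH1 probe set gave 0.77 in vitro and -0.06 in vivo, so the probe sets disagreed in sign for in vitro embryos. CTNNA1, alpha-catenin, differed by -0.40 ± 0.15 in vitro and -0.54 ± 0.15 in vivo without passing (adjusted p = 0.158 and 0.103), although its Day 13 and Day 7 arrays did not overlap for either origin. CTNNB1, beta-catenin, differed by 0.22 ± 0.42 and -0.22 ± 0.42, and its highest value was 13.64 in Day 13 in vitro replicate 1.

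Some hypoblast markers differed between the ages as well. Of 8 listed, 7 were measured, and their summed linear intensity was 6329 to 10752 in Day 13 in vitro, 17652 to 37585 in Day 13 in vivo, 13610 to 20452 in Day 7 in vitro and 13145 to 21671 in Day 7 in vivo arrays. The Day 13 and Day 7 sums overlapped for in vivo origin. In vivo, APOA1, APOA2 and LAMB1 were higher at Day 13 and the other 4 did not pass, beside 3.79% of all probe sets called and 8.23% of those above background. In vitro, GATA6 was lower and the others did not pass, beside 7.51% and 16.6%. GATA4, a defining factor, exceeded background on 1 array. The part of hypoblast cells in the CDH2 difference was not tested.

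Desmosome genes passed once. DSC2, desmocollin 2, is an adhesive cadherin of desmosomes. It had 12.60, 12.41 and 12.45 in Day 13 in vitro and 11.69, 10.79 and 11.81 in Day 13 in vivo conceptuses, against 10.35, 10.82 and 10.15 in Day 7 in vitro and 10.42, 10.51 and 10.23 in Day 7 in vivo blastocysts. The groups of different age did not overlap for either origin. DSC2 rose by 2.05 ± 0.27 in vitro (adjusted p = 0.00327), and its difference in vivo was 1.04 ± 0.27 (adjusted p = 0.0889, and 0.00822 without Day 13 in vivo replicate 2).

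PKP2, the plakophilin that links desmosomal cadherins to desmoplakin, had 12.57, 12.14 and 11.66 in Day 13 in vitro and 11.05, 9.85 and 10.85 in Day 13 in vivo conceptuses, against 11.44, 11.54 and 11.39 in Day 7 in vitro and 10.12, 11.33 and 10.80 in Day 7 in vivo blastocysts. It did not pass for either origin (0.67 ± 0.40, adjusted p = 0.483, and -0.17 ± 0.40, adjusted p = 1). A dimmer PKP2 probe set stood at 8.28, 7.74 and 3.62 in Day 13 in vitro conceptuses and below background on the other 9 arrays. PKP4 was above background only in Day 13 in vitro replicates 1 and 2, at 5.04 and 4.29, which also had the lowest poly-A spike-in values. Whether that array difference bears on PKP4 and the second PKP2 probe set was not tested. DSC1, DSC3, DSG1 and PKP1 were at background on all arrays, and PKP3 exceeded it on 1.

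Tight junction genes moved in both directions. CLDN10, a claudin known in kidney and other epithelia for channels that pass ions between cells, had 2.56, 2.65 and 3.82 in Day 13 in vitro and 3.95, 3.54 and 3.67 in Day 13 in vivo conceptuses, against 9.57, 8.16 and 8.95 in Day 7 in vitro and 9.27, 9.33 and 10.40 in Day 7 in vivo blastocysts. It fell by 5.88 ± 0.48 on the log2 scale in vitro (adjusted p = 0.000276) and by 5.95 ± 0.48 in vivo (adjusted p = 0.000334). The conceptus values lay at or near background, with 1 of 3 in vitro and 3 of 3 in vivo arrays above it. Both calls held under every alternative.

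CLDN1 and CLDN4, claudins known for tightening epithelial barriers, passed in embryos of in vivo origin. CLDN1 had 5.21, 4.75 and 5.56 in Day 13 in vitro and 5.38, 6.46 and 7.02 in Day 13 in vivo conceptuses, against 4.71, 3.54 and 4.41 in Day 7 in vitro and 3.78, 3.66 and 3.93 in Day 7 in vivo blastocysts. It rose by 2.50 ± 0.45 in vivo (adjusted p = 0.0185), and its in vitro difference was 0.95 ± 0.45 (adjusted p = 0.306). CLDN4 had 9.30, 9.64 and 8.99 in Day 13 in vitro and 9.52, 10.46 and 9.69 in Day 13 in vivo conceptuses, against 8.62, 8.94 and 8.94 in Day 7 in vitro and 8.83, 8.55 and 8.59 in Day 7 in vivo blastocysts. It rose by 1.23 ± 0.26 in vivo (adjusted p = 0.0355), and its in vitro difference was 0.48 ± 0.26 (adjusted p = 0.399). For both genes the Day 13 arrays lay above the Day 7 arrays of the same origin.

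CLDN1 no longer passed without Day 13 in vivo replicate 2 or Day 7 in vivo replicate 1 or 2 (adjusted p 0.0544 to 0.0634). CLDN4 no longer passed without Day 13 in vivo replicate 3 or Day 7 in vivo replicate 1, 2 or 3 (adjusted p 0.0605 to 0.111), with a replicate block (adjusted p = 0.0572) and, at 0.76, with arrays centred on ribosomal protein genes (adjusted p = 0.0806). Both calls were also lost when only the in vivo arrays were fitted (adjusted p = 0.151 for CLDN1 and 0.236 for CLDN4).

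F11R encodes junctional adhesion molecule A, an early component of tight junctions. It had 11.62, 10.83 and 10.28 in Day 13 in vitro and 10.07, 11.09 and 10.64 in Day 13 in vivo conceptuses, against 11.99, 11.65 and 12.33 in Day 7 in vitro and 12.07, 12.22 and 12.29 in Day 7 in vivo blastocysts. All conceptus values were below all blastocyst values of any origin, but the differences of -1.08 ± 0.37 and -1.60 ± 0.37 did not pass (adjusted p = 0.138 and 0.0547). The in vivo difference passed with quantile normalization (adjusted p = 0.021), ribosomal protein centring (0.00124), dim probe sets left out (0.0154), the poly-A covariate (0.0328) and without Day 13 in vivo replicate 2 (0.049), and the in vitro one with quantile normalization (0.0367). A dimmer F11R probe set had 5.94, 5.65 and 5.94 in Day 13 in vitro and 5.87, 5.94 and 5.85 in Day 13 in vivo conceptuses, against 9.83, 8.61 and 9.34 in Day 7 in vitro and 7.20, 7.75 and 7.55 in Day 7 in vivo blastocysts. By that probe set F11R fell by 3.42 in vitro (adjusted p = 0.000273) and by 1.62 in vivo (adjusted p = 0.016) on the log2 scale. The probe sets thus gave the same sign and different sizes in vitro. The dimmer one had a value of 5.94 identical to 6 decimals on 3 Day 13 arrays. Between origins at Day 7 the probe sets disagreed in sign, at -0.21 by the brighter and 1.76 by the dimmer (limma adjusted p = 0.0739). They also did so for the difference of the day effect, at 0.52 and -1.81 (adjusted p = 0.135 for the dimmer). None of these passed.

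The scaffold gene TJP3 also had non-overlapping ages without passing. It averaged 6.41 ± 0.14 in Day 13 in vitro and 5.87 ± 0.64 in Day 13 in vivo conceptuses, against 7.70 ± 0.38 in Day 7 in vitro and 7.25 ± 0.65 in Day 7 in vivo blastocysts (SD, n = 3 each), with adjusted p = 0.104 in vitro and 0.128 in vivo. It passed for both origins with ribosomal protein centring (adjusted p = 0.0429 and 0.00386) and with dim probe sets left out (0.0338 and 0.0415). CLDN6, an embryonic claudin, was bright in every group, at 13.2 ± 0.64, 12.6 ± 0.67, 13.6 ± 0.09 and 13.7 ± 0.48 in the same order, and did not pass (adjusted p = 0.848 and 0.303), except in vivo with ribosomal protein centring (adjusted p = 0.0127). Its dimmer probe set gave 1.07 in vitro, opposite in sign to -0.40 by the brighter one. CLDN12 differed by 1.82 ± 0.64 in vitro and 0.79 ± 0.64 in vivo (adjusted p = 0.149 and 0.617). CLDN7 stayed between 4.93 and 6.03 on all arrays. CLDN5, a claudin of blood vessels, stayed between 3.09 and 4.26, and 7 arrays shared its value of 3.81. CLDN3 exceeded background on 3 arrays. CLDN2, CLDN11, CLDN15, CLDN16, CLDN18, CLDN19 and TJP1 did so on none.

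The sodium pump was represented by its beta subunits, which carry the alpha subunit to the membrane. ATP1B1 had 7.28, 6.72 and 6.71 in Day 13 in vitro and 7.95, 7.20 and 7.50 in Day 13 in vivo conceptuses, against 5.41, 5.51 and 5.03 in Day 7 in vitro and 5.73, 5.40 and 5.44 in Day 7 in vivo blastocysts. Every conceptus array lay above every blastocyst array. ATP1B1 rose by 1.59 ± 0.23 in vitro (adjusted p = 0.0055) and by 2.03 ± 0.23 in vivo (adjusted p = 0.00244). When only the arrays of one origin entered the fit, the adjusted p was 0.0508 in vitro and 0.0566 in vivo, with ranges of 0.00194 to 0.258 and 0.000676 to 0.0566 over all alternatives.

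ATP1B3, the other beta subunit above background, was bright on all arrays. It had 14.56, 14.68 and 14.66 in Day 13 in vitro and 14.50, 13.90 and 14.47 in Day 13 in vivo conceptuses, against 14.42, 14.49 and 14.07 in Day 7 in vitro and 14.15, 14.50 and 14.65 in Day 7 in vivo blastocysts. Its differences of 0.31 ± 0.19 and -0.14 ± 0.19 did not pass (adjusted p = 0.522 and 0.914). ATP1B2 and ATP1B4 were at background on all arrays.

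Of the water channels, AQP3 and AQP11 were above background. AQP11, an aquaporin found inside cells, had 7.16, 7.16 and 7.04 in Day 13 in vitro and 6.69, 6.44 and 6.70 in Day 13 in vivo conceptuses, against 7.16, 7.31 and 7.23 in Day 7 in vitro and 7.65, 7.36 and 7.78 in Day 7 in vivo blastocysts. The in vivo groups did not overlap and the in vitro groups met at 7.16. AQP11 fell by 0.99 ± 0.11 in vivo (adjusted p = 0.0023), and its in vitro difference was -0.11 ± 0.11 (adjusted p = 0.83). The in vivo call was lost when only those 6 arrays were fitted (adjusted p = 0.0955). The value of 7.16 was identical to 6 decimals on 3 arrays. Among all probe sets above background, 25.4% had 3 or more arrays equal to 2 decimals.

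AQP3, a channel for water and glycerol at the sides of epithelial cells, had 10.46, 10.61 and 8.22 in Day 13 in vitro and 8.59, 10.85 and 10.32 in Day 13 in vivo conceptuses, against 10.86, 10.25 and 9.88 in Day 7 in vitro and 9.80, 9.21 and 9.70 in Day 7 in vivo blastocysts. The lowest arrays of all were replicate 3 of the Day 13 in vitro and replicate 1 of the Day 13 in vivo group. The day differences were -0.57 ± 0.75 and 0.35 ± 0.75 (adjusted p = 1 for both).

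The next question was whether the origin of the embryo mattered. At Day 13, 0 of the 56 genes passed between conceptuses of in vitro and in vivo origin by limma, where 1.20% of all probe sets did (0.645% higher and 0.554% lower in vitro, and 2.57% of those above background), and 10 had an unadjusted p below 0.05. For 6 genes, all among the 25 above background on 3 or more arrays, the groups did not overlap, against 14.7% of all probe sets and 29.8% of those above background. They were CDH2, lower in vitro (-1.33 ± 0.29, adjusted p = 0.0774), and GJB2 (2.97 ± 0.69, adjusted p = 0.0881), DSC2 (1.06 ± 0.27, adjusted p = 0.111), PKP2 (1.54 ± 0.40, adjusted p = 0.114), AQP11 (0.51 ± 0.11, adjusted p = 0.0737) and ATP1B3 (0.34 ± 0.19, adjusted p = 0.48), higher in vitro. When dim probe sets were left out, CDH2, GJB2, DSC2 and PKP2 passed (adjusted p 0.0195 to 0.0439), where 1215 of 10591 probe sets did. Without Day 13 in vitro replicate 3, CDH2, PKP2, AQP11 and PKP4 passed, where 2058 of 24016 probe sets did.

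Between Day 7 blastocysts of in vitro and in vivo origin, 1 of the 56 genes passed, where 0.208% of all probe sets did, 0.129% higher and 0.0791% lower in vitro, and 0.378% of those above background. GJA1, whose array values stand above, was higher in vitro by 2.83 ± 0.38 (adjusted p = 0.0404). The 3 in vitro blastocyst arrays lay above the 3 in vivo ones, of which 1 exceeded background. The call was lost without any one of Day 7 in vitro replicates 1, 2 and 3 or Day 7 in vivo replicates 1 and 2 (adjusted p 0.0661 to 0.102), with a replicate block (adjusted p = 0.143), and over its alternatives the adjusted p ran from 0.00816 to 0.236. The other genes without overlap, CDH2, PKP2, GJB5, AQP3 and AQP11, did not pass. With GJA1 they made 6 genes, all among the 25 above background on 3 or more arrays, against 9.29% of all probe sets and 18.6% of those above background.

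The day effect itself was then compared between origins. By limma 0 of the 56 genes passed in this test, where 0.400% of all probe sets did (0.146% higher and 0.254% lower, and 0.831% of those above background), and 7 had an unadjusted p below 0.05. For GJA1 the day effect in vitro minus that in vivo was -3.05 ± 0.54 and did not pass (adjusted p = 0.0693), its Day 13 level differing by -0.22 ± 0.38 between the origins. For AQP11 the difference of the day effect was 0.88 ± 0.16 (adjusted p = 0.0727), and for GJB5 it was -1.78 ± 0.58 (adjusted p = 0.32). GJB2 did not pass (adjusted p = 0.334), and its day effects have no measured size because both Day 7 groups lay below background. Of the named genes, GJA1, GJB5 and AQP11 passed without Day 13 in vitro replicate 3 (adjusted p 0.0197, 0.0286 and 0.0302), GJA1 also without Day 13 in vivo replicate 2 (0.0207) and AQP11 without Day 7 in vivo replicate 2 (0.021). Over all 24016 probe sets, 96 passed with all arrays and 1083 without Day 13 in vitro replicate 3. Passing in one origin and not in the other, as DSC2, GJB2, CLDN1, CLDN4 and AQP11 did, was therefore not shown to be a difference between origins.

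Some genes varied as much among arrays of one group as between groups. JUP, plakoglobin, which joins both desmosomes and adherens junctions, had 9.50, 8.70 and 7.98 in Day 13 in vitro and 7.58, 9.87 and 7.80 in Day 13 in vivo conceptuses, against 9.41, 7.92 and 9.63 in Day 7 in vitro and 7.57, 7.83 and 9.17 in Day 7 in vivo blastocysts. CGN, cingulin, a tight junction plaque protein that binds the cytoskeleton, had 9.13, 8.19 and 7.19 in Day 13 in vitro and 6.34, 8.26 and 6.10 in Day 13 in vivo conceptuses, against 8.47, 7.71 and 9.01 in Day 7 in vitro and 6.45, 6.34 and 8.41 in Day 7 in vivo blastocysts. In every group the same array was highest for both genes, and neither gene passed in any comparison.

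After group means were removed, JUP and CGN correlated over the 12 arrays at Pearson's r = 0.955 and Spearman's rho = 0.853 (exact permutation within groups, two-sided p = 0.00309). This was the highest of 171 pairs among the 19 genes above background on all arrays, and with adjustment over those pairs p = 0.115 by the same exact test, so 0 pairs passed and 22 had an unadjusted p below 0.05. The exact test had 1296 orders and a smallest possible p of 0.00077. With 171 pairs, no single pair could therefore pass alone, whatever its r. Without the 2 arrays farthest from the median, Day 13 in vivo replicate 2 and Day 7 in vivo replicate 3, r was 0.925. CGN also followed CLDN7 (r = 0.935, rho = 0.818, exact permutation p = 0.00231, adjusted p = 0.115). Array measures moved with them. Deviations of JUP correlated at 0.87 with the mean of 64 ribosomal protein genes and at -0.822 with the gap between the GAPDH probe sets, and those of CGN at 0.788 and -0.774. With the ribosomal protein mean subtracted from each array, r of JUP and CGN was 0.931. That step takes out only a shift as large as that of the ribosomal mean, and JUP varied more. In Day 13 in vivo arrays JUP ran from 7.58 to 9.87 and the ribosomal mean from 13.35 to 14.11. Whether the genes correlate apart from these array measures was therefore not tested. Of 8592 probe sets above background on all arrays, 263 exceeded r = 0.9 with JUP, and CGN ranked 36.

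**Figure D4:**
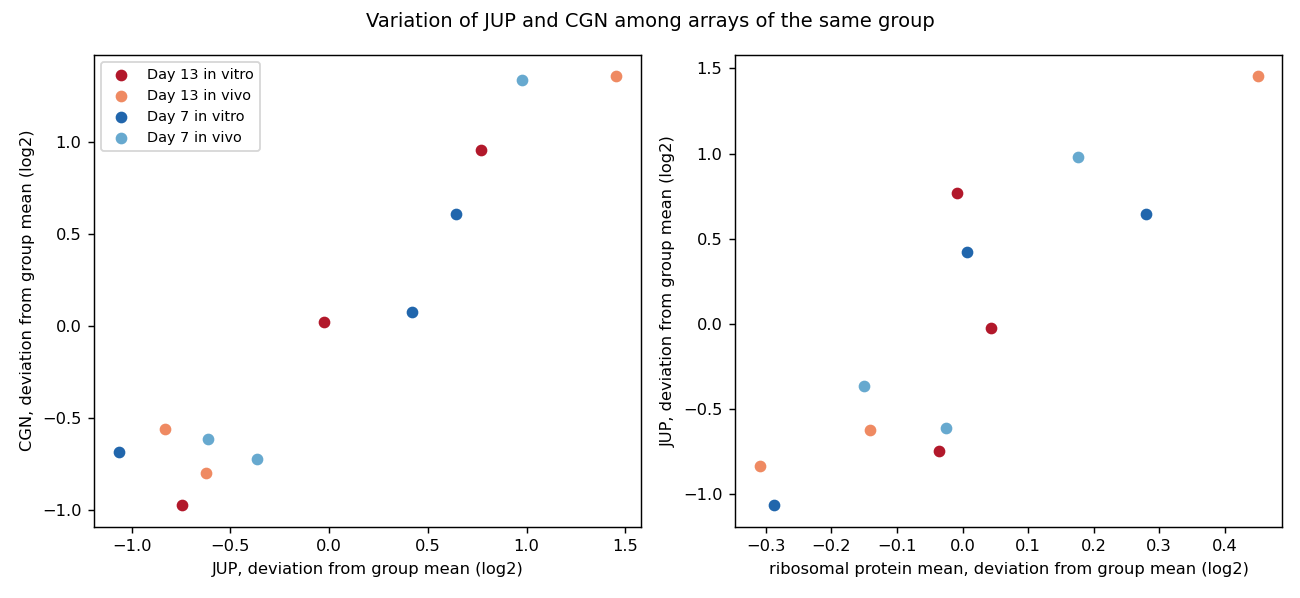
Deviations from the group mean (log2), one point per array: CGN against JUP on the left, JUP against the mean of the ribosomal protein genes on the right, with groups in colour. In the left panel CGN rises with JUP over the 12 arrays (r = 0.955). In the right panel JUP rises with the ribosomal mean over the 12 arrays (r = 0.87), but not in every group. In Day 13 in vitro replicates 1, 2 and 3 the ribosomal mean was 13.54, 13.59 and 13.51, where JUP was 9.50, 8.70 and 7.98.

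Other genes of the pathway were taken from a list of 77 junction partners, polarity, ion transport and regulator genes, of which 44 were measured. Alternatives were not examined for these genes. At Day 13, 7 were higher and 2 lower in vitro, beside 7.51% of all probe sets called and 16.6% of those above background. In vivo 2 were higher and 2 lower, beside 3.79% and 8.23%. Between origins, 1 ion transport gene was higher in vitro at Day 13 and 0 genes were lower, beside 1.20% and 2.57%. Of the blastocyst comparisons between origins, 0 passed, beside 0.208% and 0.378%. JAM2, junctional adhesion molecule B, had 8.26, 9.01 and 8.98 in Day 13 in vitro and 9.06, 8.32 and 7.81 in Day 13 in vivo conceptuses, and lay below background on all 6 Day 7 arrays. The rise was at least 41.1-fold for in vitro origin (adjusted p = 1.77e-05) and at least 32.2-fold for in vivo origin (adjusted p = 3.56e-05). SLC9A3, a sodium-proton exchanger of apical membranes, rose by 4.84 ± 0.38 in vitro and by 4.18 ± 0.38 in vivo (adjusted p = 0.000223 and 0.000621). The polarity kinase gene PRKCZ changed by -1.94 ± 0.27 and -1.36 ± 0.27 (adjusted p = 0.00431 and 0.0295).

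SLC12A2, a sodium-potassium-chloride cotransporter, averaged 7.31 in Day 13 in vitro and 3.62 in Day 13 in vivo conceptuses, against 3.13 in Day 7 in vitro and 2.70 in Day 7 in vivo blastocysts. Its Day 13 level in vitro was higher by at least 15.2-fold (adjusted p = 8.01e-05), and its Day 13 level in vivo was higher by at least 1.18-fold and did not pass (adjusted p = 0.138). The difference of the day effect passed (adjusted p = 0.0125), although both Day 7 groups lay below background and only the Day 13 levels were measured. In vitro, the chloride channel gene CFTR rose by 1.71 ± 0.41 (adjusted p = 0.0419), the desmosome-associated gene PERP by 1.28 ± 0.20 (adjusted p = 0.00743), the polarity gene LIN7C by 2.74 ± 0.62 (adjusted p = 0.0339) and TFAP2A, a transcription factor of trophoblast, by 4.17 ± 0.77 (adjusted p = 0.0146). TEAD4, a factor of trophectoderm in mouse, fell by 2.26 ± 0.45 (adjusted p = 0.0191). For these 5 genes the difference of the day effect did not pass (adjusted p 0.199 to 0.46). LIN7C exceeded background on 1 of 3 Day 7 in vitro arrays, at 2.62, 4.19 and 2.53, so the size of its rise is a fitted value. SCNN1G passed in vivo but lay below background on every array.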

How the data were processed

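The deposited table held log2 probe set intensities for 24128 probe sets on 12 Affymetrix bovine arrays, as made by the authors. Per the submitters' processing notes RMA, GCRMA and limma were used, with versions and roles not given in the sources used here. From these values 112 control probe sets were set aside and 24016 were tested, of which 13292 carried 1 symbol of GEO's platform annotation, 86 several and the rest none (13265 of these matched a RefSeq gene, which changed 1 symbol). A model with 4 group means was fitted with limma 3.58.1 (lmFit and eBayes) in R 4.3.3, with two-sided tests, Benjamini-Hochberg adjustment over all 24016 and calls at 0.05. Background, chosen after the data were seen, was the 99th percentile of 48 control probe sets. Where a group lay wholly at or below it, folds are lower bounds ("at least") beside the adjusted p of the fit. Precision is limited by having 3 pools a group. The same replicate numbers did not pair arrays: 3 of 18 same-numbered pairs correlated above 0.1 (median -0.06). Named genes were all those called in any of 5 contrasts plus a list of blastocyst genes. The members and lists were chosen with earlier results of these data known. The fit was tested on simulated data. Alternatives were quantile normalization, ribosomal protein centring, dim probe sets left out, a replicate block, only the groups compared, a poly-A covariate, arrays left out and, where it was above background on 3 or more arrays, the second brightest probe set.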

Additional observations from a re-analysis of the deposited data

Results flagged for a closer look

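SLC12A2, from the list of other pathway genes, had a Day 13 against Day 7 effect that differed between in vitro and in vivo origin in a direct test of that difference, by 3.26 ± 0.39 on the log2 scale (limma, adjusted p = 0.0125). The size is a fitted value, since the Day 7 values of both origins and 1 of the 3 Day 13 in vivo values lay at or below background. Alternatives were not examined for this gene. Over all probe sets, the 96 calls of this test became 11 with the poly-A spike-in mean as a covariate.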

How the results depend on the processing

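Over 13 or 12 alternatives each, 6 of the 16 calls held throughout: those of GJA1, CDH2 and CLDN10 in both day comparisons, none of which has a second probe set above background to set beside it. No call changed sign. The number of genes called between Day 13 and Day 7 in vitro was 7, 7 to 9 with single arrays left out and 3 with the poly-A spike-in mean as a covariate, which ended the calls of DSC2, GJB2, GJB5 and ATP1B1 (adjusted p 0.157, 0.133, 0.0642 and 0.258). That fit separates the spike-in poorly from the Day 13 in vitro group, where it was lowest. Without Day 13 in vitro replicates 1 and 2 together, where the lone array left is assumed to vary like the other groups, the fitted differences were 2.02 for DSC2 and 1.40 for ATP1B1. In vivo the number was 8, 5 to 9 with single arrays left out, 5 without Day 7 in vivo replicate 1 and 5 without replicate 2, and 3 when only the 6 arrays compared were fitted. Between origins at Day 13 it was 0, 1 with ribosomal protein centring, 4 with dim probe sets left out and 0 to 4 with single arrays left out, the 4 without Day 13 in vitro replicate 3. At Day 7 it was 1, and 0 with quantile normalization, ribosomal protein centring, a replicate block, only the groups compared or the poly-A covariate, and 0 to 1 with single arrays left out. For the difference of the day effect it was 0, 1 with dim probe sets left out and 0 to 4 with single arrays left out, the 4 without Day 13 in vitro replicate 3. The replicate block gave 7, 6, 0, 0 and 0 genes in the 5 comparisons in this order. It ended the in vivo calls of GJB5 and CLDN4 and the Day 7 call of GJA1 and no other. The causes were not tested. Leaving out dim probe sets reduced the adjustment to 10591 probe sets. Of 99 results on named genes that did not pass, 16 passed under at least 1 alternative. Over all probe sets, the 1804 calls in vitro became 197 with the poly-A covariate, 787 with only the groups compared and 2898 without Day 13 in vitro replicate 3, and the 911 in vivo became 241 with only the groups compared and 1731 with ribosomal protein centring. The 288 calls between origins at Day 13 became 0 with only the groups compared, 1215 with dim probe sets left out and 2058 without Day 13 in vitro replicate 3. The 96 calls for the difference of the day effect became 11 with the poly-A covariate and 1083 without that array.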
